A study of Mus musculus with 6 samples.

Results

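The mRNA levels of 9 genes for proteins that package and store maternal mRNA were followed in mouse oocytes with and without LSM14B. The members were fixed by name: Zar1 and Zar1l (the ZAR1 pair), Ybx1 and Ybx2 (the YBX genes), and the partner genes Spin1, Eif4enif1, Eif4e1b, Patl2 and Ddx6. All 9 had a row among the 24255 genes of the deposited expression table. Values are FPKM, fragments per kilobase of transcript scaled to the mapped fragments of the library, so levels of different genes are compared per length.

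A growing oocyte makes more mRNA than it translates, and much of it is kept in ribonucleoprotein (RNP) particles with a short poly(A) tail until meiosis resumes or after fertilization. In such particles, YBX proteins coat the mRNA, the helicase DDX6 acts with LSM14, PAT1 and 4E-T proteins as a repression complex, and 4E-T (EIF4ENIF1) holds cap-binding proteins away from the translation machinery. ZAR1 and ZAR1L are oocyte RNA-binding proteins that stabilize and repress stored mRNA, and LSM14B belongs to the LSM14 family that works with DDX6.

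The libraries came from germinal-vesicle-stage fully-grown oocytes (GV-stage FGOs), oocytes that have finished growth and have not resumed meiosis. There were 3 WT libraries and 3 libraries from mice homozygous for Lsm14b tm1a(KOMP)Mbp, a reporter-tagged insertion allele carried in every cell of the animal (Lsm14b-KO), both on a C57BL/6J background per the methods of the study. All females received 5 IU of PMSG, a gonadotropin that drives follicle growth, and oocytes were taken 46 h later, 20 per library. The age of the RNA-Seq animals, and whether libraries of a group came from separate animals, are not given in the sources used here, so p-values measure the spread between these libraries only.

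Lsm14b itself had 2.77, 3.98 and 1.72 FPKM in WT and was listed at 0, 0 and 0.10 in the Lsm14b-KO libraries. It was lower in Lsm14b-KO by the test used throughout, limma on log2(FPKM + 1) with Benjamini-Hochberg adjustment (adjusted p = 0.0038). Of 10 oocyte markers all were listed in every group, with sums of 14610 to 17090 FPKM in WT and 11030 to 11570 in Lsm14b-KO. These sums were carried by H1foo, which was lower (log2 fold change -1.09, adjusted p = 0.031), and Oosp1 (-0.71, adjusted p = 0.19), whereas 7 of the 10 had a positive fold change, with Kit higher (0.84, adjusted p = 0.044). Of 10 cumulus and granulosa cell markers, 5 were at 0 in every library, Amh, Foxl2 and Inhba among them, and the summed level was 9.02 to 13.2 FPKM in WT and 5.24 to 8.87 in Lsm14b-KO. Most of it was Cyp19a1, which was lower (-0.98, adjusted p = 0.043), while Fshr (0.73, adjusted p = 0.092) and Inha (0.38, adjusted p = 0.30) had positive fold changes. Depth relative to the first WT library was 1 to 1.14 in WT and 1.33 to 2.17 in Lsm14b-KO, as read from the smallest steps of low values. Summed FPKM was 1141324 to 1244182 in WT and 564671.1 to 1029728 in Lsm14b-KO, so that scaling the libraries to equal sums raised the median log2 fold change of all genes by 0.47. The fold changes of the members are therefore also given on other scales where the call changed. Oocytes were analysed in bulk, so fewer cells holding an mRNA and less of it per cell cannot be told apart.

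**Figure D1:**
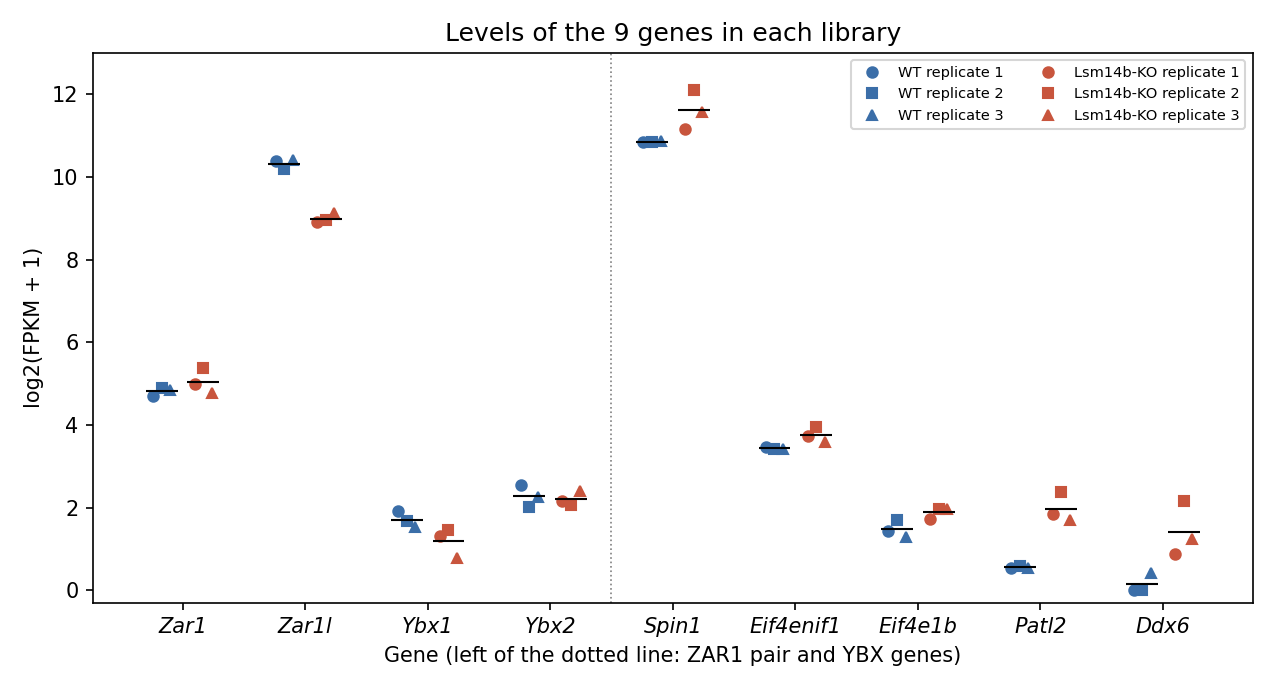
Level of each of the 9 genes in each library, as log2(FPKM + 1), with symbols for the replicates, blue for WT and orange for Lsm14b-KO, and a black line at each group mean. Zar1l and Spin1 lie far above the other genes in every library; the WT and Lsm14b-KO points are apart for Zar1l, Ybx1 and the 5 genes right of the dotted line.

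In WT oocytes the order of mean levels was Spin1, Zar1l, Zar1, Eif4enif1, Ybx2, Ybx1, Eif4e1b and Patl2, from 1852 ± 26.2 to 0.47 ± 0.030 FPKM (SD, n = 3), with Ddx6 last. The ranges of neighbours in that order were apart, except for Ybx1 and Eif4e1b, which overlapped. Spin1 ranked 118th and Zar1l 148th by mean among the 6398 genes that reached 1 FPKM in at least 1 library, whereas Ybx2 ranked 2805th and Ybx1 3499th. These are ranks of listed FPKM, and the part of transcript length, GC content and near-identical copies in them was not tested. In the Lsm14b-KO libraries Spin1, Zar1l, Zar1 and Eif4enif1 kept the first 4 places without overlap. The ranges of Ybx2, Patl2, Eif4e1b, Ddx6 and Ybx1 formed a chain in which each neighbour overlapped the next. Spin1 and Zar1l made up 98.1% to 98.7% of the summed level of the 9 genes in every library.

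All 9 members could be tested, but Patl2 and Ddx6 reached 1 FPKM only in Lsm14b-KO libraries and so had to be higher there to enter the test. By limma, 3 of the 9 passed the threshold of an adjusted p of 0.05 (33.3%), against 21.6% of all tested genes. Zar1l was lower, where 15.2% of all tested genes were, and Patl2 and Ddx6 were higher, where 6.38% were. Among the members that also reached 1 FPKM in WT, Zar1l alone passed. The groups did not overlap for 7 of the 9 members, 5 higher and 2 lower, against 45.0% of all tested genes, 19.1% higher and 26.0% lower. The median log2 fold change was 0.32 over the members and -0.075 over all tested genes. The member counts and this median of 0.32 include Patl2 and Ddx6.

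Zar1l encodes the closest relative of ZAR1. Its level was 1330, 1162 and 1349 FPKM in WT and 477, 494 and 559 FPKM in Lsm14b-KO. Every Lsm14b-KO library was below every WT library. The mean fell from 1280 ± 103 to 510.1 ± 42.9 FPKM (SD, n = 3), to 0.40 of the WT level, a log2 fold change of -1.33 with a standard error of 0.27 (limma, adjusted p = 0.014, 95% interval -1.94 to -0.71). The gene's transcript is the shortest of the 9, at 895 nt, against a median of 2259 nt over tested genes. With the trend of fold change on transcript length and GC content taken out, the fold change was -0.62 and no longer passed (adjusted p = 0.12). It was -0.63 after scaling to equal FPKM sums (adjusted p = 0.12) and -0.52 after quantile normalization (adjusted p = 0.22). On the scale of equal sums the level, in TPM, was 991.3 to 1182 in WT and 464 to 876 in Lsm14b-KO, so the groups stayed apart there while the size of the difference shrank. Without any 1 WT library, or without Lsm14b-KO replicate 3, the fold change was -1.40 to -1.29 and did not pass either (adjusted p = 0.067 to 0.083).

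Zar1 encodes zygote arrest 1. It was listed at 25.0, 28.6 and 27.7 FPKM in WT and at 30.8, 40.9 and 26.1 FPKM in Lsm14b-KO. The groups overlapped, and the log2 fold change of 0.23 (95% interval -0.40 to 0.87) did not pass (limma, adjusted p = 0.53). On the scale of equal sums the level, in TPM, was 20.12 to 24.43 in WT and 29.92 to 72.35 in Lsm14b-KO, so the groups were apart there. The fold change was then 0.91 (adjusted p = 0.085), and 0.70 after quantile normalization (adjusted p = 0.14), which did not pass either. A pseudogene, Gm15847, is 95.2% identical over 1083 nt of the Zar1 transcript, so reads of the pair could be split, and it has no row of its own in the table.

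The relation within the ZAR1 pair is the same under any common scaling of a library. The Zar1l level was 53.1, 40.6 and 48.6 times the Zar1 level in the WT libraries and 15.5, 12.1 and 21.4 times in the Lsm14b-KO libraries. The groups did not overlap, and the mean ratio of 47.5 ± 6.36 in WT was 2.91 times that of 16.3 ± 4.69 in Lsm14b-KO (SD, n = 3; exact permutation tests of 3 against 3 libraries cannot give a p below 0.10). Length and GC content differ within the pair, with Zar1 at 1429 nt and 62.1% GC and Zar1l at 895 nt and 52.4% GC, and their part in this ratio was not tested.

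The 3′ ends of the pair are shown because stored mRNAs are controlled from there, through a short tail and elements near the poly(A) signal. The capitals mark the AATAAA signal, and positions are those of GRCm38, the mm10 assembly, on the minus strand: chr5:72577125-72577154 for Zar1, in its 3′ UTR, and chr5:150507064-150507093 for Zar1l.
Zar1: acttggatataaagcctgtgAATAAAaggt
Zar1l: tagtgtcttcttcagcttaaAATAAAcctt
The annotated 3′ UTR is 146 nt in Zar1 and 14 nt in Zar1l, where 5 of the 6 signal bases lie in the coding sequence with its stop codon. A processed pseudogene, Gm15933, overlaps Zar1l on the same strand and has no row of its own.

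Ybx1 and Ybx2 encode Y-box proteins that bind mRNA with little sequence preference, YBX2 (MSY2) being the germ-cell form. Ybx1 was listed at 2.75, 2.17 and 1.90 FPKM in WT and at 1.47, 1.75 and 0.72 FPKM in Lsm14b-KO. Every Lsm14b-KO library was below every WT library, yet the log2 fold change of -0.52 (95% interval -1.07 to 0.03) did not pass (limma, adjusted p = 0.14). On the scale of equal sums the groups overlapped, at 1.665 to 2.209 TPM in WT and 1.065 to 3.092 in Lsm14b-KO. The fold change there was -0.082 (adjusted p = 0.85). Gm11560, a copy 96.1% identical to Ybx1 over 932 nt, could share its reads.

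Ybx2 was listed at 4.86, 3.05 and 3.75 FPKM in WT and at 3.48, 3.19 and 4.26 FPKM in Lsm14b-KO. The groups overlapped, and the log2 fold change of -0.063 (95% interval -0.58 to 0.45) did not pass (limma, adjusted p = 0.85); it turned positive after scaling to equal sums (0.49) and under 4 of the other 14 settings tried. The ratio of Ybx2 to Ybx1 was 1.77, 1.40 and 1.97 in WT and 2.37, 1.83 and 5.91 in Lsm14b-KO, and these ranges overlapped as well.

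**Figure D2:**
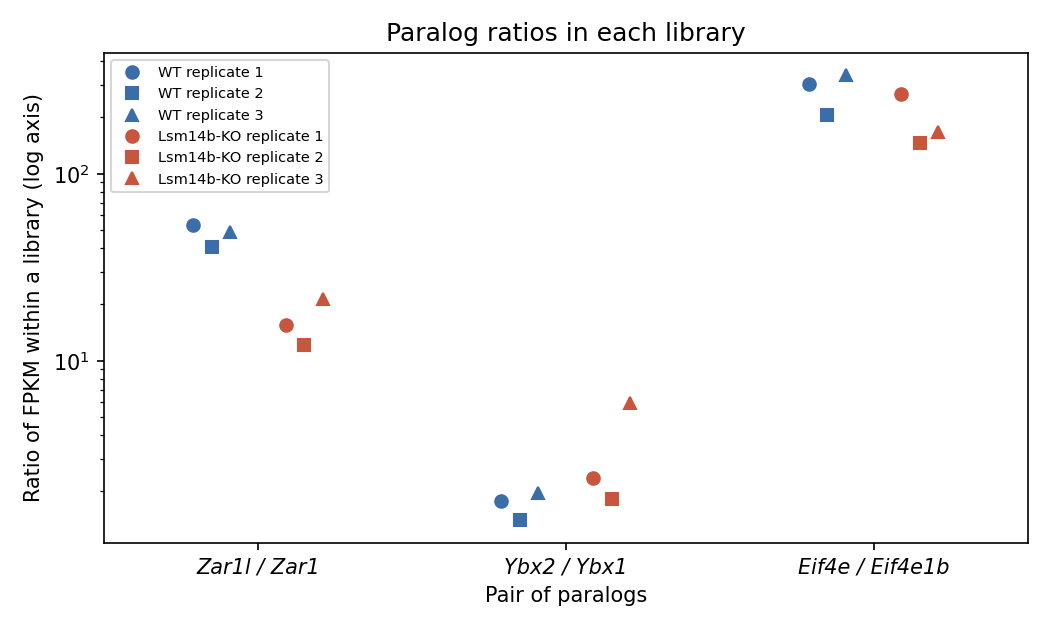
Ratio of the FPKM of paralogs within each library, on a log axis, with symbols for the replicates, blue for WT and orange for Lsm14b-KO. Zar1l over Zar1 lies between 40.6 and 53.1 in WT and between 12.1 and 21.4 in Lsm14b-KO, while the groups overlap for Ybx2 over Ybx1 and for Eif4e over Eif4e1b.

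Spin1 encodes spindlin 1, a reader of methylated histone H3 that is among the abundant maternal proteins of the oocyte and also associates with mRNA there. Its level was 1849, 1828 and 1880 FPKM in WT and 2273, 4438 and 3049 FPKM in Lsm14b-KO. The Lsm14b-KO libraries were all higher and spread far more widely, 3253 ± 1097 FPKM against 1852 ± 26.2 (SD, n = 3). The ratio of the means was 1.76 and the log2 fold change 0.76 with a standard error of 0.31, which did not pass (limma, adjusted p = 0.11, 95% interval 0.034 to 1.48). It did pass at 1.45 after scaling to equal sums (adjusted p = 0.042), at 1.60 after quantile normalization (adjusted p = 0.031) and at 0.99 without Lsm14b-KO replicate 1 (adjusted p = 0.0096), but not after the correction for length and GC content, at 0.57 (adjusted p = 0.095).

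Eif4enif1 encodes 4E-T, the protein that ties the cap-binding factor to the repression complex. It was listed at 10.1, 9.67 and 9.61 FPKM in WT and at 12.3, 14.4 and 11.0 FPKM in Lsm14b-KO. The groups did not overlap, but the log2 fold change of 0.32 (95% interval -0.20 to 0.84) did not pass (limma, adjusted p = 0.31). The deposited locus of Eif4enif1 is shared with 8 other genes, and Drg1 overlaps it on the other strand at 1.55 to 3.49 FPKM in WT and 3.91 to 4.49 in Lsm14b-KO. Whether the libraries are stranded is not stated, so reads of overlapping genes cannot be assigned with certainty.

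Eif4e1b encodes the oocyte form of the cap-binding protein eIF4E, which binds the cap weakly and 4E-T well. It was listed at 1.71, 2.24 and 1.44 FPKM in WT and at 2.31, 2.87 and 2.89 FPKM in Lsm14b-KO. All Lsm14b-KO values were above all WT values, and the log2 fold change of 0.41 (95% interval -0.056 to 0.87) did not pass (limma, adjusted p = 0.17). The general cap-binding gene Eif4e was 206 to 337 times as high as Eif4e1b in WT and 146 to 266 times in Lsm14b-KO, with overlap. Gm5705, which is over 95% identical to Eif4e1b across 726 nt, could share its reads.

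RNA segments crosslinked to LSM14B were taken from the study's list, of which only a part was used here. The paper names Patl2, Ybx2 and Zar1 among the mRNAs bound by LSM14B. It reports binding for a very large set of oocyte mRNAs, so being bound is not particular to the members. Here only short segments that matched a member's annotated transcript at a single place were kept. Eif4e1b has a pair of such entries in the part used, which says nothing on entries of other members in the rest. Both are 20 nt long and lie in the coding sequence on the plus strand, at chr13:54784460-54784479 and chr13:54786680-54786699 of GRCm38. They are printed without capitals, as no motif was searched in them.
First segment: gagaagccaaagaccttcct
Second segment: gcattgacaaacaactgcgc

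Patl2 encodes the oocyte PAT1 protein, an RNA-binding repressor needed for oocyte maturation. It was listed at 0.46, 0.51 and 0.45 FPKM in WT and at 2.60, 4.21 and 2.23 FPKM in Lsm14b-KO. Even the lowest Lsm14b-KO library was well above the highest WT library. The mean rose from 0.47 ± 0.030 to 3.02 ± 1.05 FPKM (SD, n = 3), 6.39 times, and the log2 fold change was 1.42 with a standard error of 0.23 (limma, adjusted p = 0.0062, 95% interval 0.89 to 1.94). Because 1 FPKM is added before the logarithm, the fitted value understates the ratio of so low a gene. Patl2 passed under all 15 alternative settings, with adjusted p between 0.0041 and 0.040. Most of these keep the filter that Patl2 met only through the Lsm14b-KO libraries, so they do not stand apart from that selection. With no filter on low values the adjusted p was 0.022 (limma). B2m and Trim69 overlap the Patl2 gene on the other strand. B2m was listed at 418 to 591 FPKM in WT and at 97.8 to 340 in Lsm14b-KO, the opposite order of groups, and Trim69 at no more than 0.33 FPKM in any library.

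Ddx6 encodes the DEAD-box helicase at the centre of the repression complex. It was listed at 0, 0 and 0.34 FPKM in WT and at 0.82, 3.48 and 1.35 FPKM in Lsm14b-KO. The groups did not overlap, and the log2 fold change on the log2(FPKM + 1) scale was 1.28 with a standard error of 0.34 (limma, adjusted p = 0.035, 95% interval 0.49 to 2.06). A value listed at 0 can be a failed estimate, so no ratio is given. Ddx6 entered the test through the Lsm14b-KO libraries only, and with no filter on low values it did not pass (adjusted p = 0.083). Without Lsm14b-KO replicate 2, the highest library, the fold change was 0.91 and did not pass (adjusted p = 0.056), and without any 1 WT library or Lsm14b-KO replicate 3 it was 1.21 to 1.42 (adjusted p = 0.081 to 0.12). Ddx6 has the longest transcript of the 9, at 6065 nt, and with length and GC content taken out its fold change was 1.05 (adjusted p = 0.040).

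**Figure D3:**
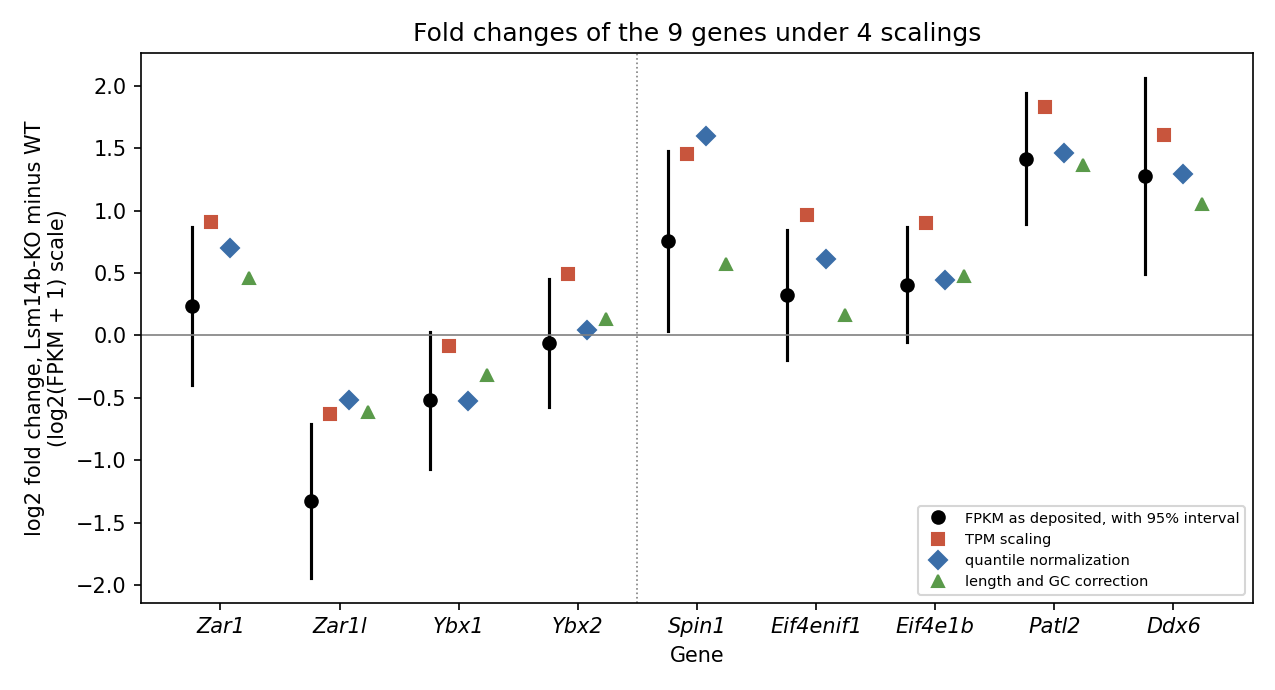
Log2 fold change of each of the 9 genes, Lsm14b-KO minus WT on the log2(FPKM + 1) scale, where black points with 95% intervals are from FPKM as deposited and the other symbols are from equal FPKM sums (TPM scaling), quantile normalization and the correction for length and GC content. The 5 genes right of the dotted line are above 0 on all 4 scales and Zar1l and Ybx1 are below 0 on all 4, while Ybx2 lies on both sides. Patl2 and Ddx6 reached 1 FPKM only in Lsm14b-KO libraries and so had to be higher there to be tested. The median of all genes also moved with the scale, from -0.075 as deposited to 0.40, 0.069 and 0.091 in the order above.

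Set side by side, the ZAR1 pair and the YBX genes had log2 fold changes of -1.33, 0.23, -0.52 and -0.063, with a median of -0.29, and 2 of the 4 had groups that did not overlap, both lower, as in 26.0% of all tested genes. This depended on the scale, since with equal sums Ybx1 overlapped and Zar1 was apart and higher. The other 5 had fold changes from 0.32 to 1.42, with a median of 0.76, and in all 5 the groups were apart and higher in Lsm14b-KO, as in 19.1% of all tested genes; Patl2 and Ddx6 had entered the test through the Lsm14b-KO libraries only. Per library, the mean log2(FPKM + 1) of the first 4 genes minus that of the other 5 was 1.62, 1.38 and 1.45 in WT and 0.48, -0.045 and 0.26 in Lsm14b-KO. The libraries of the groups were apart, and the mean difference went from 1.48 ± 0.12 to 0.23 ± 0.26 (SD, n = 3), a change of -1.26. With Patl2 and Ddx6 left out, a choice made after seeing the data, it went from -0.48 ± 0.13 to -1.39 ± 0.18, a change of -0.91. No test is given for this value, which covers genes chosen with results in view. Transcript length ran alongside: the first 4 transcripts were 895 to 1673 nt long and the other 5 were 1897 to 6065 nt. After the correction for length and GC content the change was -0.81. All of these values are mRNA levels, and protein was not measured here. By Western blot the paper reports less SPIN1, EIF4ENIF1, PATL2, DDX6 and YBX2 protein in Lsm14b-KO oocytes, with DDX6 almost absent. For the first 4 of these, the mRNA was listed higher in every Lsm14b-KO library than in any WT library, the opposite direction. Of these 4, Spin1 and Eif4enif1 did not pass in limma. Patl2 and Ddx6 were under 1 FPKM in every WT library and entered the test through the Lsm14b-KO libraries only. Why protein and mRNA differed was not tested.

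Cytoplasmic polyadenylation elements (CPEs) recruit CPEB1 and decide when a stored mRNA is given a long tail. The letters TTTTAT or TTTTAAT were searched on the transcript strand in the last 100 nt of annotated 3′ UTRs of at least 100 nt. They were present in 3 of 8 members, Ybx1, Ybx2 and Spin1, and in 20.5% of 5462 tested genes. The matches are printed with 12 bases before them because they are the only members with these letters there, with the match in capitals. They lie in the 3′ UTR at chr4:119278051-119278080 (minus strand), chr11:69941532-69941561 (plus strand) and chr13:51152473-51152502 (plus strand) of GRCm38.
Ybx1: taagaacttcatTTTTAATttgtaataaag
Ybx2: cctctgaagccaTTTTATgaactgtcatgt
Spin1: tctgtaagtaatTTTTATaattatgatgta
The end of the annotated transcript was 81, 56 and 56 bases after the match, in that order. The 3 genes did not move alike in FPKM as deposited: Spin1 was listed higher in every Lsm14b-KO library, Ybx1 lower in every one, and Ybx2 overlapped. With equal sums Ybx1 overlapped as well. A poly(A) signal, AATAAA or ATTAAA, was found on the transcript strand within the last 40 nt of 7 of the 8, with Ybx2 the exception, and of 78.4% of the 5462 genes. A match describes the letters only.

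The other genes of mRNA storage, repression and cytoplasmic polyadenylation were taken from a list of 35, of which 24 could be tested, 6 of these through the Lsm14b-KO libraries alone. By limma, 4 rose and 2 fell, together 25.0% of the 24 against 21.6% of all tested genes, and the groups did not overlap for 16 of the 24, 14 higher and 2 lower, against 45.0% of all tested genes, 19.1% higher and 26.0% lower. The median log2 fold change was 0.48, against -0.075 over all tested genes. Among the 18 that also reached 1 FPKM in WT, 3 rose and 2 fell, the groups were apart for 11, 9 higher and 2 lower, and the median was 0.40. Of the 18 that did not pass, 16 had a positive fold change and 2 a negative one, between -0.25 and 0.67. Over all tested genes, passing or not, 2997 of 6398 had a positive fold change. The 16 include genes that reached 1 FPKM only in Lsm14b-KO libraries and so had to be higher there to be tested. After scaling to equal sums 10 were higher and 0 lower by limma (1 lower at an unadjusted p under 0.05), where 833 of the 6398 tested genes were higher, and after quantile normalization 7 and 1, where 540 of the 6398 were higher. Without any 1 WT library, or without Lsm14b-KO replicate 3, 0 of the 24 passed in limma, where 6 or 7 had an unadjusted p under 0.05 and 4.92% to 7.22% of all tested genes passed. Without Lsm14b-KO replicate 1 12 passed, where 45.3% of all tested genes did, and without Lsm14b-KO replicate 2 3 passed, where 13.5% did.

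Among those that rose, Cpeb1, whose protein binds CPEs, was at 16.9, 18.1 and 22.7 FPKM in WT and at 29.99, 54.6 and 49.0 FPKM in Lsm14b-KO, a log2 fold change of 1.14 (limma, adjusted p = 0.038). G3bp2, a stress granule protein, was at 17.8, 19.8 and 17.6 FPKM in WT and at 41.1, 61.7 and 57.6 FPKM in Lsm14b-KO (1.47, adjusted p = 0.011). For both genes every Lsm14b-KO library was above every WT library. Its paralog G3bp1 went from 0.20 ± 0.18 to 1.08 ± 0.33 FPKM (SD, n = 3; 0.79, adjusted p = 0.040), and it passed the filter only through the Lsm14b-KO group; after the correction for length and GC content it was 0.55 (adjusted p = 0.15). Eif4e3, a cap-binding gene of the eIF4E family, went from 2.81 ± 0.96 to 6.43 ± 1.46 FPKM (0.97, adjusted p = 0.035). With no filter on low values, Cpeb1, G3bp1 and Eif4e3 did not pass (adjusted p = 0.072, 0.069 and 0.080), nor did Cpeb1 and G3bp1 with the replicate number as a block (0.052 and 0.0503).

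Dazl and Eif4e2 were the ones that fell. Dazl, whose protein promotes translation of germ-cell mRNAs, was at 135, 128 and 155 FPKM in WT and at 34.4, 57.2 and 50.5 FPKM in Lsm14b-KO, a log2 fold change of -1.56 (limma, adjusted p = 0.013). Eif4e2, the cap-binding repressor 4EHP, was at 2.53, 4.99 and 3.62 FPKM in WT and at 1.96, 0.84 and 0.75 FPKM in Lsm14b-KO (-1.12, adjusted p = 0.031). The groups were apart for both. After scaling to equal sums neither passed, with -0.88 for Dazl (adjusted p = 0.13) and -0.70 for Eif4e2 (adjusted p = 0.10). Quantile normalization left Dazl at -0.97 (adjusted p = 0.083), and with no filter Eif4e2 did not pass (adjusted p = 0.079). Lsm14a, the paralog of the targeted gene, was at 20.2, 17.7 and 18.1 FPKM in WT and at 15.5, 22.4 and 20.7 FPKM in Lsm14b-KO. The groups overlapped, and its log2 fold change of 0.052 (95% interval -0.54 to 0.64) did not pass (limma, adjusted p = 0.89). It was 0.72 after scaling to equal sums and -0.040 after the correction for length and GC content.

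**Figure D4:**
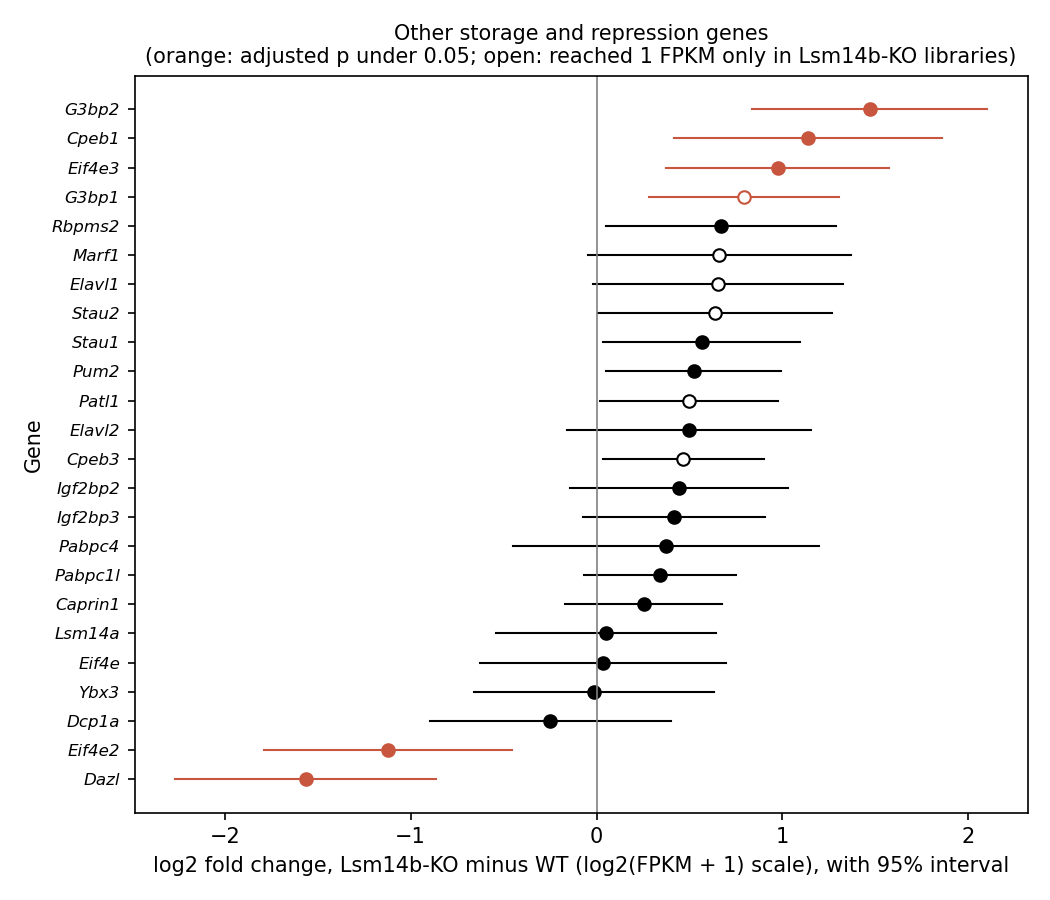
Log2 fold change, Lsm14b-KO minus WT on the log2(FPKM + 1) scale, with its 95% interval, for the 24 tested genes of the list of other storage and repression genes. Orange marks the 6 with an adjusted p under 0.05, 4 above 0 and 2 below, and open circles the 6 genes that reached 1 FPKM only in Lsm14b-KO libraries.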

How the data were processed

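RNA-Seq was done by the authors on 3 WT and 3 Lsm14b-KO libraries of 20 oocytes, amplified by Smart-seq2. Per the labels and the submitters' processing notes, reads were aligned to mm10 with tophat2 (2.0.13), and FPKM were computed with cufflinks (2.2.1). The annotation is not given in the sources used here, the labels name 2 library kits, and strandedness is not stated. The authors deposited FPKM per library. The table's own fold change, p and q columns were not used. Read counts were not used here, and depth is known only as ratios between libraries.

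Groups were taken from the sample labels. A gene was tested if any library reached 1 FPKM. Values on the log2(FPKM + 1) scale were fitted by limma 3.58.1 (R 4.3.3; lmFit and eBayes with a trend; genotype only; two-sided), and p-values were Benjamini-Hochberg adjusted over 6398 genes. The script was tested on simulated data. Coordinates, transcript length and GC came from GENCODE vM21 (GRCm38) and near-identical copies (at least 95% over 200 nt) from blastn 2.17.0. The genes named are the 9 members, Lsm14b, Lsm14a, those of the list of 35 that passed with groups apart, and for each member the gene of at least 5 FPKM on average with the nearest profile. Outside this rule, and chosen after their values were seen, are cell type markers, the genes that overlap or nearly match a member, and the paralogs Eif4e and Patl1. The members and lists were chosen with earlier results of these data known. Alternatives were other pseudocounts, filters and scalings, a loess correction for length and GC (span 0.5), a replicate block, eBayes without a trend, and leaving out each library.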

Additional observations from a re-analysis of the deposited data

How the results depend on the processing

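Under 15 alternatives each, Patl2 passed and kept its direction throughout, Zar1l kept its direction and passed in 8, and Ddx6 kept its direction in the 14 that tested it and passed in 8. Where low values were filtered, Patl2 and Ddx6 had entered through the Lsm14b-KO libraries only. The Ybx2 fold change of -0.063 reversed in 5, to 0.49 with equal FPKM sums, 0.0475 with quantile normalization, 0.132 with the length and GC correction, 0.0767 without WT replicate 1 and 0.0084 without Lsm14b-KO replicate 2, and ranged from -0.19 to 0.0767 with 1 library left out. The difference between the ZAR1 and YBX members and the other 5, -1.26, was -1.98 with a pseudocount of 0.1, -2.49 with 0.01 -0.81 with the length and GC correction and, in an alternative added after seeing the data, -0.91 without Patl2 and Ddx6. Of the other storage and repression genes, 6 of 24 passed, where 21.6% of all tested genes did. With no filter on low values 2 of 33 passed, where 5.03% of all genes did. With equal sums 10 of 24 passed, where 20.6% of all genes did. Leaving out 1 library at a time, 1 to 4 members passed, 0 to 12 of the other genes and 315 to 2898 of all genes. The 0 occurred without WT replicate 1, 2 or 3 or Lsm14b-KO replicate 3, and 2898 without Lsm14b-KO replicate 1, the Lsm14b-KO library with the highest correlation with the WT mean (0.958, against 0.881 and 0.927). Without 1 WT library or Lsm14b-KO replicate 3, Patl2 alone passed among the members. In all, 1383 genes passed, and 720 with no filter, where 14325 genes share the adjustment. Higher calls were 29.5% of the 1383, 63.2% with equal sums, 42.4% with quantile normalization and 44.3% with the length and GC correction; these shifted the median of all genes by 0.47, 0.14 and 0.17 (log2). The cause of these changes was not tested. With the replicate number as a block 1244 genes passed, the same 3 members among them, and 4 of the other genes. Same-numbered libraries deviated together with correlations of 0.19, -0.128 and 0.0179, so the numbers were not taken to pair the libraries. With depth known only as ratios, no counting interval could be set on the values under 1 FPKM of Ddx6, Patl2 and Ybx1.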

Other observations

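For each member, the gene of at least 5 FPKM on average with the nearest profile was looked up, by the Euclidean distance of log2(FPKM + 1) values centred over the 6 libraries. A distance of 0 would be an identical profile. For the ZAR1 pair, Zar1l lay nearest to Obox2, an oocyte homeobox gene, at 0.154, and Zar1 to Arhgap12 at 0.177. For the YBX genes, Ybx2 lay nearest to Thumpd3 at 0.0961, the smallest distance of the 9, and Ybx1 to Zfp942 at 0.204. Among the partners, Spin1 lay nearest to Ermp1 (0.177), Eif4enif1 to Dda1 (0.205), Eif4e1b to Cct8 (0.177), Ddx6 to Armc1 (0.234) and Patl2 to Kbtbd7 (0.257). With 6 libraries in 2 groups a near profile mostly describes the same group difference, and nothing on shared function follows from it.

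In TPM, with the summed FPKM of every library scaled to the same total, the 9 members together had 2591, 2590 and 2869 in WT and 2723, 8861 and 5403 in Lsm14b-KO. The value of Lsm14b-KO replicate 1 lay within the WT range and the other 2 were above it. Spin1 carried most of this, at 1486 to 1647 in WT and 2207, 7860 and 4505 in Lsm14b-KO.

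The Patl1 to Patl2 ratio was 0.69, 0.55 and 0.69 in WT and 0.24, 0.17 and 0.55 in Lsm14b-KO, where the highest Lsm14b-KO library lay just above the lowest WT library. Both genes were under 1 FPKM in every WT library and reached it only in Lsm14b-KO, so the WT ratios rest on very low values. Patl1 itself was listed at 0.28 to 0.32 FPKM in WT and at 0.62 to 1.23 in Lsm14b-KO.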
